A study of Homo sapiens with 4 samples.

Results

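SMAD proteins and their receptors carry signals of the transforming growth factor beta (TGF-β) family from the cell surface to the nucleus. The genes described are SMAD1 to SMAD7, the TGF-β receptors TGFBR1 and TGFBR2, and the nodal and activin receptor ACVR1C. They were chosen by name, 10 genes of the 60554 in the count table, and SMAD3 was included because it is a target of miR-491-5p reported elsewhere. All 10 were measured, which means that their mean normalised count over the libraries was 50 or more, as was the case for 12662 genes in all.

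The RNA came from IGROV1-R10, a human ovarian cancer line, transiently transfected at 60 nM. The miR-491-5p groups received this microRNA with a biotin label, and the control groups a biotin-labelled worm microRNA. Nuclei were removed, 10% of the lysate was set aside as the input, and the rest was kept for 4 h on streptavidin beads and washed 5 times, which gave the pull-down, also called the beads here. The 4 groups were thus the miR-491-5p pull-down, the control pull-down, the miR-491-5p input and the control input. Each was 1 library of RNA pooled from 3 experiments, so pooling removed the spread between experiments. Lysates without nuclei hold mainly cytoplasmic RNA.

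A ligand of the family brings type II and type I receptors together, and the type I receptor phosphorylates a receptor-regulated SMAD. TGFBR1 and ACVR1C act on SMAD2 and SMAD3, while receptors for bone morphogenetic proteins (BMPs) act on SMAD1 and SMAD5. The activated SMAD pairs with SMAD4 and enters the nucleus, and SMAD6 and SMAD7 hold the pathway back. In many epithelial cells the pathway slows proliferation, and ovarian surface epithelium and its tumours respond to TGF-β, activins and BMPs.

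The mature microRNA that was used as bait is shown because its seed is the part that pairs with target RNAs. It is encoded on chromosome 9, plus strand, with the sequence from RefSeq (GRCh38.p14, chr9:20716120-20716141), and the capitals mark the seed, bases 2 to 8.
hsa-miR-491-5p: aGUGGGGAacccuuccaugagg
Of 2370 mature microRNA names in the RefSeq table, 1 carried this seed, miR-491-5p itself. A site that pairs with the whole seed reads UCCCCAC, but the target RNAs' sequences were not analysed here, and no site is claimed for any gene below.

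Total gene counts were between 47679684 and 62582646 per library, and the 10 genes took 0.125% to 0.180% of them. Of the 10 ovarian epithelial markers, KRT8 had 34219 to 39468 reads in the libraries and KRT18 32395 to 50861. EPCAM had 9693 to 17387 reads, KRT19 7799 to 11108, PAX8 7352 to 16006 and WT1 694 to 1302. Lower were CDH1 with 188 to 599 reads, MUC16 with 84 to 337, KRT7 with 120 to 206 and MSLN with 9 to 14. Libraries differed in markers of other cell types. The 11 hepatocyte markers summed to 38 reads on the miR-491-5p beads, 26 on the control beads and 20 in the input of miR-491-5p cells, against 2840 in that of control cells, where none was at 0. The 6 fibroblast markers summed to 56 reads on the miR-491-5p beads and 53 on the control beads, and to 276 reads in the input of miR-491-5p cells and 585 in that of control cells. The 5 immune markers summed to 12 to 34 reads. Of the 4 endothelial markers CDH5 held nearly all reads, with 2443 to 7823, and KDR had 0 to 7. The part of these other transcripts in the results below was not tested. The ratio between the pull-downs makes no use of the control input.

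Expression was compared between genes per length, as normalised reads per kilobase of merged exons. TGFBR2 was highest, with 3601 to 6181 over the 4 libraries, and ACVR1C lowest, with 4.19 to 13.4. SMAD5 followed TGFBR2 at a median of 1437, then TGFBR1 at 1302, SMAD3 at 950.1, SMAD2 at 565, SMAD4 at 327, SMAD6 at 263, SMAD7 at 149.6 and SMAD1 at 121. The ranges of neighbours overlapped for SMAD5 and TGFBR1, for TGFBR1 and SMAD3, for SMAD4 and SMAD6, for SMAD6 and SMAD7, and for SMAD7 and SMAD1. Within each library the order was nevertheless the same, except that SMAD6 lay above SMAD4 in the control pull-down. SMAD2 is annotated with 36366 bases of merged exons, against 3692 to 13123 for the others, which lowers its value on this scale.

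**Figure D1:**
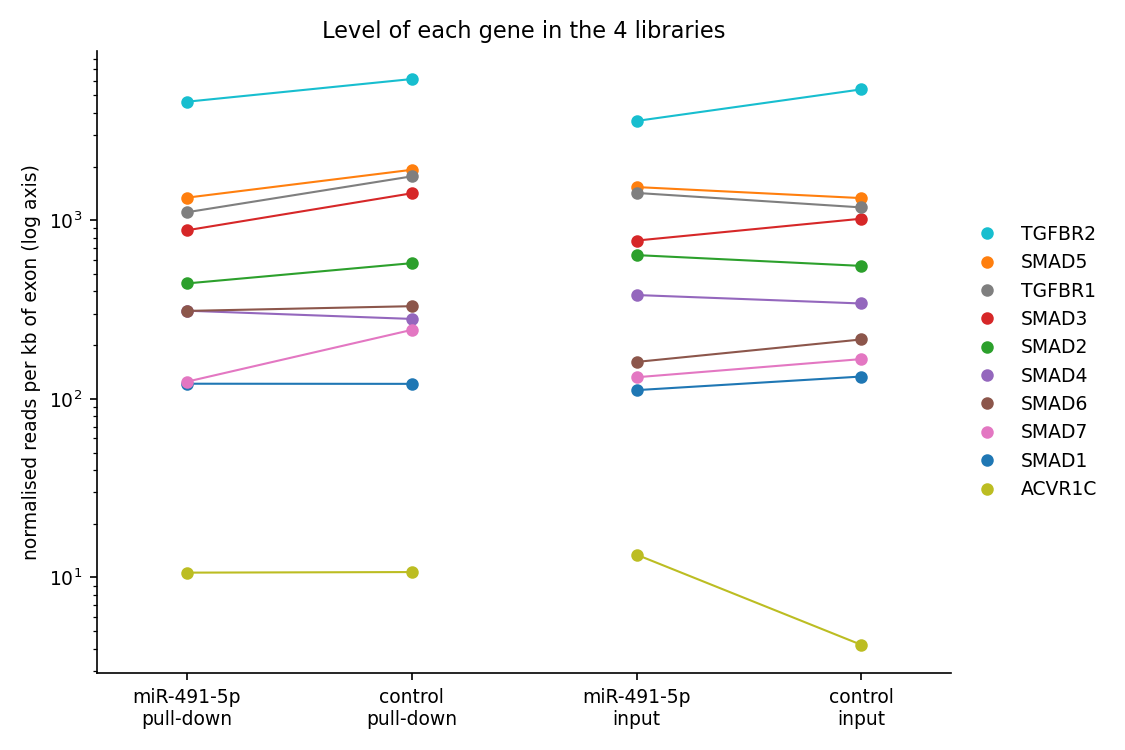
Normalised reads per kilobase of exon (log axis) of the 10 genes in the 4 libraries, 1 point per gene and library, with lines joining the miR-491-5p and control libraries of each fraction. TGFBR2 lies above all the others and ACVR1C at 13.4 or less in each of the 4 libraries.

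The first comparison asked which of these RNAs were purified with miR-491-5p beyond what their abundance gives. The design text defines this enrichment by 2 ratios of miR-491-5p to control, that of the pull-downs over that of the inputs. None of the 10 genes was enriched by 2-fold. ACVR1C was depleted, with a log2 enrichment of -1.66, and TGFBR1 at -0.94 stood just short of 2-fold depletion. The reported target SMAD3 lay at -0.28. SMAD6 at 0.33, SMAD1 at 0.26 and TGFBR2 at 0.17 lay above 0. Values are log2 ratios of normalised counts plus 1, with 95% intervals of counting error. Each group has 1 library and reads are not independent molecules, so the intervals leave out the spread between experiments and no p-value is given for a difference between the microRNAs. A gene was called when it differed by at least 2-fold with an interval that excluded 0.

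By this rule 0 of 10 genes were called enriched and 1 depleted, where 4.46% and 5.32% of all genes were. The median over the 10 was -0.43, against 0.00 over all genes. With libraries scaled by total counts instead, these medians became -0.25 and 0.18, and 1 of the 10 genes was called under either scaling. Over all genes that scaling called 888 enriched and 445 depleted, where size factors called 565 and 673. The interval lay below 0 for 6 genes and above 0 for 3, where 35.3% and 35.4% of all genes did so.

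SMAD3, which transmits TGF-β and activin signals to DNA, lies on chromosome 15 (ENSG00000166949, hg38, 67063763 to 67195195, plus strand). It had 8013 normalised reads on the miR-491-5p beads and 12911 on the control beads, and input values of 7018 in miR-491-5p cells and 9304 in control cells. It was thus lower with miR-491-5p in both fractions. The input ratio was -0.41 (-0.45 to -0.36), and 7.13% of all genes had a lower one. The pull-down ratio was -0.69 (-0.72 to -0.65), a 1.61-fold difference, and the enrichment -0.28 (-0.34 to -0.22). The SMAD3 transcript was 1.33-fold less abundant in the miR-491-5p input and was not captured above the control. In a lysate of many cells, fewer cells with a transcript and less of it per cell cannot be told apart.

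SMAD2, the close relative of SMAD3 in the same branch, lies on chromosome 18 (ENSG00000175387, 47808957 to 47931146, minus strand). It had 16115 normalised reads on the miR-491-5p beads and 20925 on the control beads, and input values of 23218 in miR-491-5p cells and 20200 in control cells. The direction differed between the fractions. The input ratio was 0.20 (0.17 to 0.23), the pull-down ratio -0.38 (-0.40 to -0.35) and the enrichment -0.58 (-0.62 to -0.54).

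In the BMP branch, SMAD5 (ENSG00000113658, chromosome 5, 136132845 to 136188747, plus strand) had the same pattern as SMAD2. It had 11756 normalised reads on the miR-491-5p beads and 16841 on the control beads, and input values of 13477 in miR-491-5p cells and 11689 in control cells. Its input ratio was 0.21 (0.17 to 0.24), its pull-down ratio -0.52 (-0.55 to -0.49) and its enrichment -0.72 (-0.77 to -0.67). SMAD1, its partner in that branch (ENSG00000170365, chromosome 4, 145481194 to 145558079, plus strand), had 737 normalised reads on the miR-491-5p beads and 735 on the control beads, which did not differ beyond counting error. Its input values were 678 in miR-491-5p cells and 808 in control cells. The input ratio of -0.25 (-0.41 to -0.09) alone placed its enrichment above 0, at 0.26 (0.05 to 0.46). An antisense gene, SMAD1-AS1, shares 6.21% of the exon bases of SMAD1, and for SMAD5 6.95% are shared with SMAD5-AS1 and 2 other genes. Strand was not used in counting and reads that fell on exons of several genes were left out, so the counts lack reads that fell in these shared stretches.

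SMAD4, the common partner of the receptor-regulated SMADs (ENSG00000141646, chromosome 18, 51028394 to 51085045, plus strand), had the enrichment nearest to 0. It had 4091 normalised reads on the miR-491-5p beads and 3679 on the control beads, and input values of 5007 in miR-491-5p cells and 4489 in control cells. Both fractions were slightly higher with miR-491-5p, at 0.15 (0.09 to 0.21) in the pull-downs and 0.16 (0.09 to 0.22) in the inputs. The enrichment was 0.00 (-0.09 to 0.08). Another gene on the same strand shares 7.37% of the exon bases of SMAD4.

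The inhibitory SMADs parted in the pull-downs. SMAD7, which binds activated type I receptors (ENSG00000101665, chromosome 18, 48919853 to 48950711, minus strand), had 461 normalised reads on the miR-491-5p beads and 899 on the control beads, and input values of 488 in miR-491-5p cells and 617 in control cells. Its pull-down ratio of -0.96 (-1.11 to -0.81) was the lowest of the 10, and 3.59% of all genes had a lower one. The input ratio was -0.34 (-0.52 to -0.15) and the enrichment -0.62 (-0.86 to -0.39). SMAD6, which acts mainly against BMP signals (ENSG00000137834, chromosome 15, 66702228 to 66782848, plus strand), had 2662 normalised reads on the miR-491-5p beads and 2829 on the control beads, and input values of 1379 in miR-491-5p cells and 1843 in control cells. Its input ratio was -0.42 (-0.53 to -0.31). With a pull-down ratio of only -0.09 (-0.16 to -0.02), which became 0.07 when libraries were scaled by total counts, its enrichment was 0.33 (0.20 to 0.46), the highest of the 10.

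The TGF-β receptors went opposite ways in the inputs. TGFBR2, the type II receptor that binds TGF-β (ENSG00000163513, chromosome 3, 30606502 to 30694142, plus strand), had 21707 normalised reads on the miR-491-5p beads and 29078 on the control beads, and input values of 16939 in miR-491-5p cells and 25457 in control cells. It was lower with miR-491-5p in both fractions, and its input ratio of -0.59 (-0.62 to -0.56) was the lowest of the 10. Only 3.10% of all genes had a lower input ratio. The pull-down ratio was -0.42 (-0.45 to -0.40), so the enrichment was 0.17 (0.13 to 0.20).

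TGFBR1, the type I receptor that joins TGFBR2 (ENSG00000106799, chromosome 9, 99104038 to 99154192, plus strand), had 7593 normalised reads on the miR-491-5p beads and 12062 on the control beads, and input values of 9741 in miR-491-5p cells and 8082 in control cells. Its input ratio was 0.27 (0.22 to 0.32) and its pull-down ratio -0.67 (-0.71 to -0.63). The enrichment of -0.94 (-0.997 to -0.877), a 1.91-fold depletion, was the lowest after ACVR1C, and 6.30% of all genes were lower.

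ACVR1C, a type I receptor for nodal and activins (ENSG00000123612, chromosome 2, 157526767 to 157629005, minus strand), was scarce. It had 121 reads on the miR-491-5p beads and 111 on the control beads, and input values of 118 in miR-491-5p cells and 30 in control cells. The control input alone was low, and after normalisation the gene had 97.8 on the miR-491-5p beads and 98.6 on the control beads, and input values of 123 in miR-491-5p cells and 38.5 in control cells. The pull-down ratio was -0.01 (-0.38 to 0.36). The enrichment of -1.66 (-2.35 to -0.98) therefore came from the input ratio of 1.65 (1.08 to 2.23), a 3.14-fold difference that rests on 30 reads in 1 library.

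**Figure D2:**
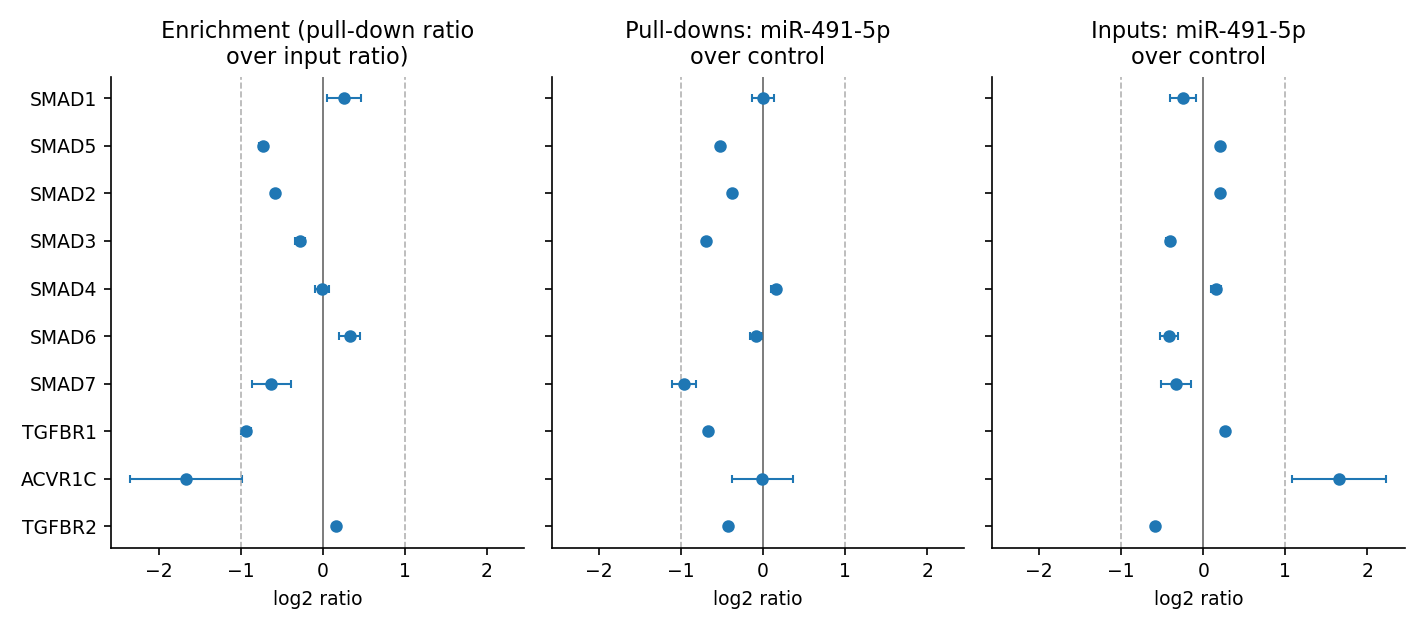
Log2 enrichment, pull-down ratio and input ratio of the 10 genes, each miR-491-5p over control, with bars for the 95% counting interval and dashed lines at 2-fold. In the inputs SMAD3, SMAD6, SMAD7, SMAD1 and TGFBR2 lie below 0, and in the pull-downs 7 intervals lie below 0.

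Taking the input and pull-down ratios over all 10 genes, the inputs were split evenly, with 5 intervals above 0 and 5 below, where 29.0% and 29.5% of all genes lay. The median counting error of the input ratio was 0.028 for the 10 genes and 0.056 for all genes, so intervals of the 10 exclude 0 at smaller ratios, here and in the other comparisons. In the inputs 1 gene was called higher, ACVR1C, and 0 lower, against 0.727% and 0.513% of all genes. The median input ratio was -0.05, against -0.01 over all genes. In the pull-downs 0 genes were called, against 2.50% of all genes higher and 3.17% lower. There 7 intervals lay below 0 and 1 above, where 37.5% and 38.7% of all genes lay, and the median was -0.40, against 0.01. The input ratio is the divisor of the enrichment, so the enrichment and the input ratio of a gene are not independent.

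Pairs of related genes were then set against each other within the same libraries, where the scaling of the libraries cancels. The input ratio of SMAD3 was below that of SMAD2 by 0.61 on the log2 scale, with a difference of -0.61 (-0.66 to -0.55). The pull-down ratio of SMAD3 was also the lower, with a difference of -0.31 (-0.36 to -0.27). This difference was smaller than that of the inputs, so the enrichments differed the other way, by 0.30 (0.22 to 0.37). For TGFBR1 minus TGFBR2 the difference was 0.86 (0.80 to 0.91) in the input ratio, -0.25 (-0.29 to -0.20) in the pull-down ratio and -1.10 (-1.17 to -1.03) in the enrichment. For SMAD5 minus SMAD1 it was 0.46 (0.30 to 0.62) in the input ratio, -0.52 (-0.66 to -0.38) in the pull-down ratio and -0.98 (-1.19 to -0.77) in the enrichment. For SMAD6 minus SMAD7 the input ratios did not differ beyond counting error, at -0.08 (-0.29 to 0.13). The pull-down ratios of this pair differed by 0.87 (0.71 to 1.04) and the enrichments by 0.95 (0.69 to 1.22). The partners of each of the 4 pairs thus differed in enrichment by more than counting error. Such differences are common, as the enrichment interval lay above 0 for 35.4% of all genes and below 0 for 35.3%. How often other pairs of genes differ so was not computed.

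**Figure D3:**
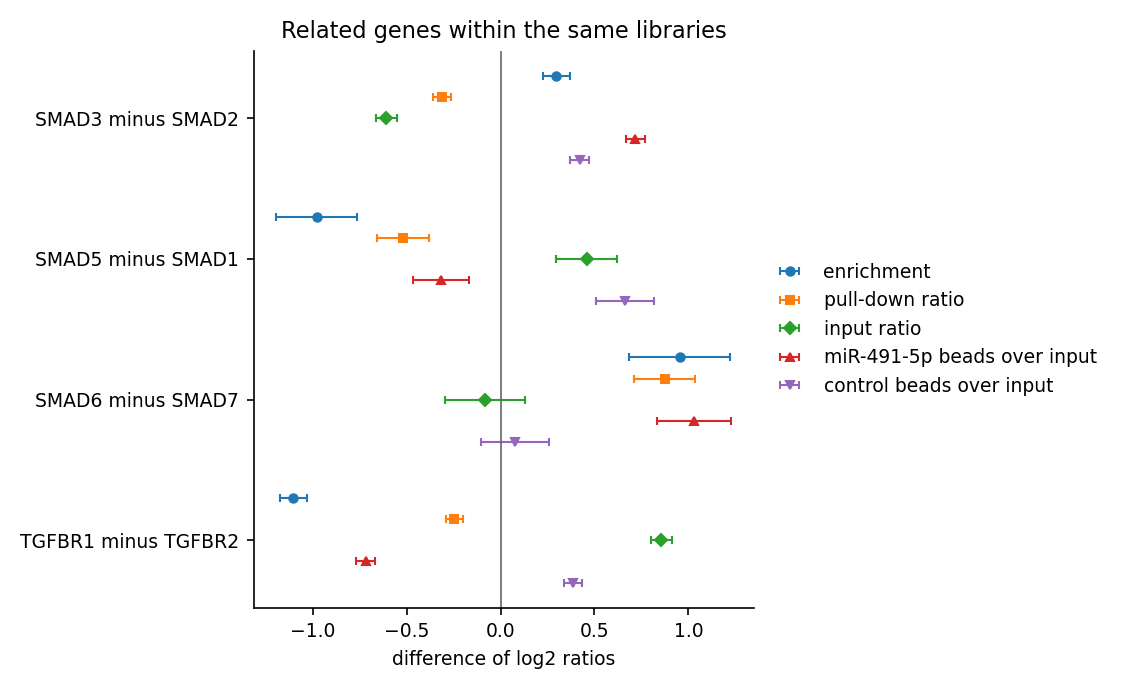
Differences of log2 ratios between related genes, the first named minus the second, for the 5 ratios, with bars for the 95% counting interval. The enrichment of TGFBR1 lies 1.10 below that of TGFBR2, and that of SMAD6 lies 0.95 above that of SMAD7.

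Pull-down over input was compared within each transfection, which shows what the beads held with either microRNA. SMAD6 and, less so, SMAD3 and TGFBR2 stood above their input on both kinds of beads. SMAD4 stood below on both. SMAD2, SMAD5 and TGFBR1 were below their input on the miR-491-5p beads and above it on the control beads. Over all genes the median was -0.15 on either kind of beads. Another scaling, edgeR's TMM factors, moved both medians by 0.15, so the share of all genes with a lower value is given with these ratios.

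On the miR-491-5p beads SMAD6 had 0.95 (0.86 to 1.04), with 93.9% of genes lower, TGFBR2 0.36 (79.3% lower) and SMAD3 0.19 (71.5% lower). SMAD2 had -0.53 (24.1% lower), TGFBR1 -0.36 (34.4% lower), SMAD4 -0.29 (39.5% lower) and SMAD5 -0.20 (46.5% lower). SMAD1 at 0.12 (67.8% lower), SMAD7 at -0.08 (55.0% lower) and ACVR1C at -0.33 (36.6% lower) had intervals that held 0. With total counts SMAD5 came to 0.12 and SMAD4 to 0.03, above 0. On these beads 0 of 10 genes were called, against 5.34% of all genes higher and 4.96% lower, and the median was -0.14. The interval lay above 0 for 3 genes and below 0 for 4, where 30.3% and 51.1% of all genes lay. TMM factors raised SMAD6 to 1.10 and so made it the 1 gene called.

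On the control beads ACVR1C had 1.33 (0.75 to 1.91), SMAD6 0.62 (83.3% lower) and TGFBR1 0.58 (82.1% lower). SMAD7 had 0.54 (81.1% lower), SMAD5 0.53 (80.6% lower), SMAD3 0.47 (79.0% lower), TGFBR2 0.19 (67.5% lower) and SMAD2 0.05 (60.7% lower). SMAD4 had -0.29 (42.5% lower) and SMAD1 -0.14 (50.8% lower), the latter with an interval that held 0. Here 1 gene was called higher, ACVR1C, and 0 lower, against 8.61% and 10.0% of all genes. Its value rests on the same 30 reads of the control input. The median over the 10 was 0.50, with 8 intervals above 0 and 1 below, where 33.9% and 49.6% of all genes lay.

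**Figure D4:**
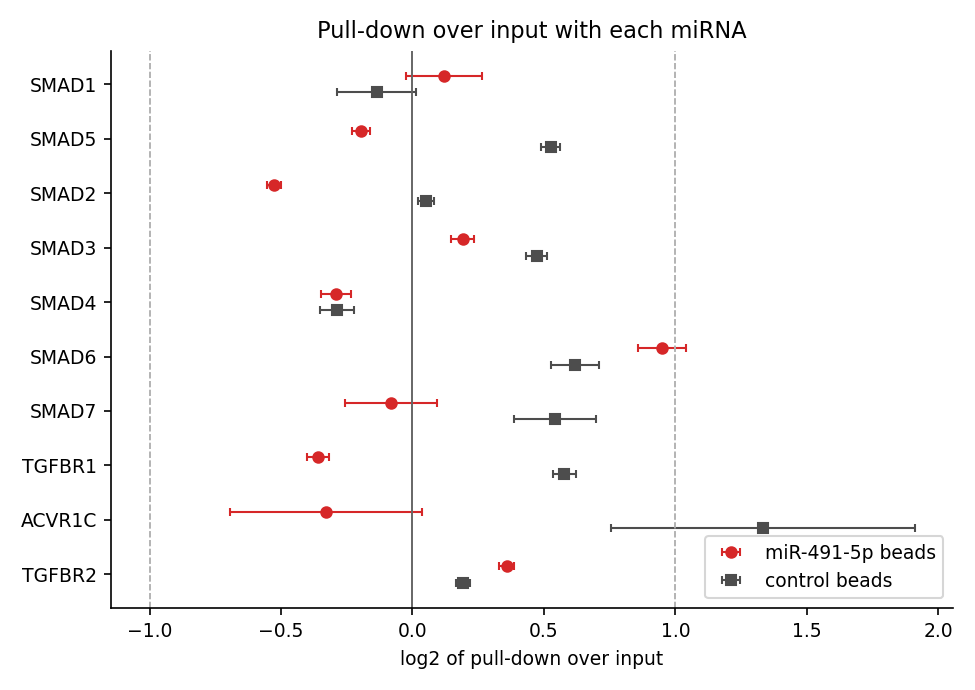
Log2 of pull-down over input for the 10 genes, with red circles for the miR-491-5p beads, grey squares for the control beads, bars for the 95% counting interval and dashed lines at 2-fold. SMAD6 lies at 0.95 and 0.62, and TGFBR1 at -0.36 and 0.58.

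Each transfection gave both fractions from 1 set of lysates, so pull-down against input could be tested with the transfection as a block, in 2 pairs that carry different microRNAs. By edgeR's quasi-likelihood test SMAD6 was higher in the pull-downs, with a log2 difference of 0.93 and an adjusted p of 0.0364 over all 12662 genes. This difference over both pairs did not reach 2-fold. With TMM factors, which the test used, SMAD6 was above its input by 1.10 in the miR-491-5p pair and by 0.77 in the control pair. With DESeq2 size factors the same test gave a difference of 0.78 and an adjusted p of 0.0473. SMAD3 had a difference of 0.48 with an adjusted p of 0.189, and TGFBR2 one of 0.42 with an adjusted p of 0.270. The adjusted p of the other 7 genes lay above that of SMAD3. At 2-fold and an adjusted p under 0.05, edgeR called 0 of the 10 genes, against 5.58% of all genes higher and 2.65% lower. SMAD6 was the 1 gene of 10 with an unadjusted p under 0.05, where 32.1% of all genes had one, and DESeq2 also called 0 at 2-fold. The test has 1 residual degree of freedom, the difference between the 2 pairs, which carry different microRNAs. Its p-values thus hold no spread between repeated experiments.

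The gene pattern most like that of SMAD3 was looked for among 11718 other named genes that were measured, by the Euclidean distance over 3 log2 ratios of the 4 libraries. These ratios were the input ratio and pull-down over input with each microRNA. MCOLN2 was nearest at a distance of 0.06, then ADORA2B at 0.09 and KLF10 at 0.12. MCOLN2 had 263 normalised reads on the miR-491-5p beads and 425 on the control beads, and input values of 224 in miR-491-5p cells and 306 in control cells. A link between these genes and SMAD3 was not tested. Of the 10 genes SMAD7 was the nearest to SMAD3, at 0.29, with 128 named genes closer, and TGFBR2 followed at 0.37.

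Other genes of the pathway were taken from 4 lists. Of 16 ligands and ligand-binding proteins 11 were measured, and their median enrichment was 0.11, with 0 called enriched and 1 depleted, where 4.46% and 5.32% of all genes were called. The depleted gene was BMP2, a BMP ligand, at -1.76 (-1.90 to -1.62), with 2583 normalised reads on the miR-491-5p beads and 7652 on the control beads, and input values of 1166 in miR-491-5p cells and 1020.2 in control cells. BMP2 was thus above its input on both kinds of beads and most so on the control beads, at 2.91. BMP6, another BMP ligand, had an enrichment of -0.85. TGFB3 and TGFB2, which encode TGF-β ligands, had 0.91 and 0.83, with 120 and 47 reads in the control input. TGFB2 had 141 reads on the miR-491-5p beads and 45 on the control beads, and an input ratio of 0.66. In the pull-downs 1 of these genes was called higher and 2 lower, where 2.50% and 3.17% of all genes were. The higher one was TGFB2 at 1.49 (1.01 to 1.97), and the lower ones were BMP2 at -1.57 and INHBB at -1.01. INHBB was named after its value was seen.

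Of 11 other receptors of the family 9 were measured, with a median enrichment of -0.45, 1 called enriched and 1 depleted, against the same 4.46% and 5.32% of all genes. TGFBR3, the co-receptor betaglycan, was depleted at -1.32 (-1.38 to -1.26), with 10304 normalised reads on the miR-491-5p beads and 24250 on the control beads, and input values of 7714 in miR-491-5p cells and 7263 in control cells. ACVR2B, a type II receptor for activins, had -0.94, and ACVR1B, a type I receptor for activins, -0.08. ACVRL1, a type I receptor best known from endothelium, was enriched at 1.68 (0.97 to 2.39), with 144 reads on the miR-491-5p beads and 70 on the control beads, and input values of 41 in miR-491-5p cells and 58 in control cells. In enrichment 8 of the 9 receptors lay below 0, as did 49.9% of all genes.

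Of 21 regulators and partners of the SMADs 19 were measured, with a median enrichment of -0.09 and 0 called in enrichment, against 4.46% of all genes enriched and 5.32% depleted. SKIL and PPM1A were lowest, at -0.99 and -0.73, and BAMBI and SKI highest, at 0.50 (-0.24 to 1.24) and 0.41. SKI and SKIL encode related repressors that bind SMADs, PPM1A a phosphatase and BAMBI a decoy receptor. SKI and SKIL also parted in the inputs, at -0.58 and 0.39. In the other ratios 1 gene was called lower in the pull-downs and 1 in the inputs, where 3.17% and 0.513% of all genes were. Both were PMEPA1, which encodes an inhibitor that the pathway itself induces, at -1.03 and -1.01. On either kind of beads 1 was called below its input, against 4.96% of all genes on the miR-491-5p beads and 10.0% on the control beads, and it was FKBP1A, whose product binds type I receptors, at -1.20 and -1.15. PMEPA1 and FKBP1A were named after their values were seen.

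Of 21 genes known as targets of the pathway 16 were measured, with a median enrichment of 0.36, 3 called enriched and 1 depleted, where over all genes it was 4.46% and 5.32%. COL1A1, a collagen chain, had 2.55 and FN1, fibronectin, 1.63. Their values came from the inputs, where their ratios were -2.54 and -1.48, and COL1A1 is also among the fibroblast markers above, with 40 reads with miR-491-5p against 193 with the control. SNAI1, a repressor of epithelial genes, had 1.48 (0.64 to 2.32) with 34 reads in the control input. CDKN1A, which encodes the cell cycle inhibitor p21, had -1.32 (-1.91 to -0.73) with 68 reads there, and ID4, a helix-loop-helix inhibitor, -0.89. In the pull-downs 1 target was called higher and 1 lower, where 2.50% and 3.17% of all genes were. These were SNAI1 at 1.23 (0.73 to 1.73) and CDKN1A at -1.12 (-1.51 to -0.74). The input ratios of SNAI1 and CDKN1A, -0.25 and 0.20, had intervals that held 0. In the inputs 14 of the 16 targets lay below 0, as did 51.0% of all genes. Their median was -0.38, against -0.01 over all genes. There 4 targets were called lower and 0 higher, where 0.513% and 0.727% of all genes were. These 4, named after their values were seen, were COL1A1, FN1, COL1A2 at -1.69 and the cell cycle inhibitor gene CDKN2B at -1.11. COL1A2 is also one of the fibroblast markers, and FN1 encodes a protein that liver, among other tissues, secretes. FN1 had 677 reads on the miR-491-5p beads and 558 on the control beads, and input values of 264 in miR-491-5p cells and 601 in control cells. The source of these reads was not tested.

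**Figure D5:**
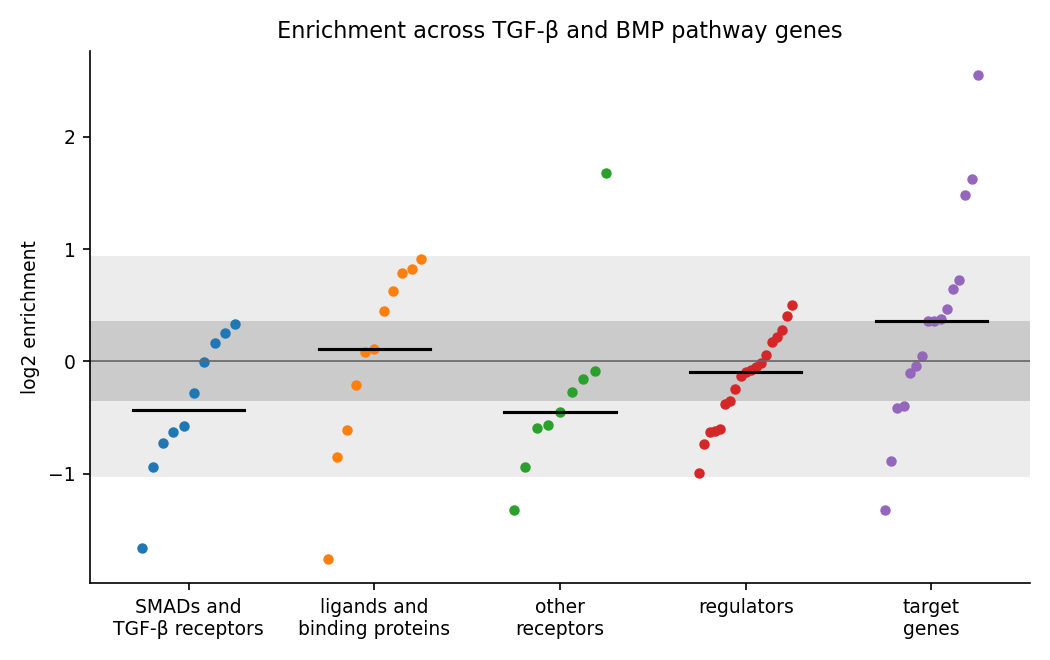
Log2 enrichment of the 10 genes and of the measured genes of 4 further lists, 1 point per gene, with black bars at the medians. Grey bands hold the central 90% and 50% of 12662 genes, and COL1A1 at 2.55 is the highest point among the target genes.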

How the data were processed

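The deposited table holds whole-number read counts per gene without normalization. Per the file headers, the authors counted reads with featureCounts 1.5.0-p1 on GENCODE release 24 exons (hg38), without strand, leaving out duplicates. The exon length per gene is also the authors', per the file headers. Per the submitters' processing notes, STAR and DESeq2 1.10.1 were also used; the aligner's settings are not given in the sources used here. Reads of several places or genes were not counted.

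Groups came from sample titles. Counts were divided by DESeq2 1.42.0 size factors (1.24, 1.13, 0.957 and 0.778 for the pull-downs with miR-491-5p and control and for their inputs), and 1 was added before log2 ratios. Standard errors are those of counting, with 0.5 added per count, and intervals span 1.96 of them. Pull-down against input was tested with edgeR 4.0.16 (TMM, Benjamini-Hochberg over 12662 genes). Depth limits precision for ACVR1C.

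The table has no gene names. Symbols came from RefSeq positions on GRCh38.p14 by best mutual overlap of spans (at least 0.4 of the joint span, 0.2 above the next, or both ends within 20 bp), or else 1 end of a protein-coding gene within 20 bp. This named 92.6% of measured genes, and all 10 members by overlap, of at least 0.892.

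The members and lists were chosen with earlier results of these data known. All members are named, and from each further list the 2 highest and 2 lowest enrichment values and every call in enrichment. Calculations were tested on simulated data. Alternatives were TMM factors, total counts, a pseudocount of 5, no filter, a 1.5-fold threshold and, for the test, DESeq2, its size factors, no filter and no block.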

Additional observations from a re-analysis of the deposited data

Results flagged for a closer look

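For 3 genes pull-down over input lay below 0 with miR-491-5p and above 0 with the control, with both counting intervals excluding 0; the difference was not tested, as each group has 1 library. TGFBR1 had -0.36 and 0.58, a difference of -0.94, SMAD5 -0.20 and 0.53, a difference of -0.72, and SMAD2 -0.53 and 0.05, a difference of -0.58. Of all 12662 genes, 8.39% did the same. With TMM factors the same 3 genes did so, with 7.53% of all genes, and with total counts only SMAD2 of the 10 did, with 3.98% of all genes. The 10 genes have smaller counting errors than most genes, so their intervals exclude 0 more readily.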

How the results depend on the processing

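The pseudocount of 5 moved none of the 50 values of single genes beyond its counting interval. All 10 genes pass the filter, so dropping it could not alter their counts and medians in the ratios. With TMM factors 15 of these 50 values moved beyond it, all in pull-down over input. The median over the 10 genes became 0.0080 on the miR-491-5p beads and 0.65 on the control beads, and 1 gene, SMAD6, was called on the miR-491-5p beads. With total counts 29 values moved further than the interval and 3 others, whose intervals excluded 0, changed sign. These were the pull-down ratio of SMAD6, which came to 0.068, and the miR-491-5p beads over input of SMAD5 (0.12) and SMAD4 (0.028). Of values whose interval held 0, 4 also changed sign, namely the enrichment of SMAD4 (0.17), the pull-down ratio of ACVR1C (0.14), SMAD7 on the miR-491-5p beads (0.24) and SMAD1 on the control beads (0.0042). With TMM factors this held for SMAD7 and SMAD1, at 0.065 and 0.011. With total counts the medians over the 10 genes were -0.25 for the enrichment and -0.24 for the pull-down ratio. On the miR-491-5p beads the median with total counts was 0.18, with 1 gene called, and on the control beads it was 0.64. Over all genes total counts gave 888 enriched and 445 depleted, against 565 and 673, and 522 higher and 263 lower in the pull-downs, against 316 and 402. TMM factors gave 926 higher and 332 lower on the miR-491-5p beads, against 676 and 628, and 1390 and 797 on the control beads, against 1090 and 1268. Total counts gave 1284 and 130 on the miR-491-5p beads and 1373 and 820 on the control beads. At a 1.5-fold threshold 4 of the 10 genes were depleted and 0 enriched, against 1778 and 1677 of all 12662 genes. In the pull-downs 3 were lower and 0 higher (1349 and 1270 of all genes), and between inputs 1 gene went each way (384 lower and 436 higher of all genes). Over input on the miR-491-5p beads 0 were lower and 1 higher (2628 and 1583), and on the control beads 0 and 2 (3411 and 2236). The test called 0 of the 10 genes at 2-fold with and without the replicate block, with DESeq2, with its size factors and without a filter, and the adjusted p of SMAD6 ran from 0.0165 to 0.0473. Without a filter the test called 1317 genes higher and 722 lower over all genes, against 707 and 335, and with DESeq2 size factors 540 and 662. With 1 library a group no replicate could be left out, and depth limits the values of ACVR1C most.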
